A study of Populus trichocarpa with 12 samples.

Results

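Regions that gained acetylation of lysine 9 on histone H3 (H3K9ac) after 7 days without water, and that shared no base with any region listed after 5 days, numbered 2013 of the 12101 regions in the deposited comparison of day 7 with day 0. The mark was profiled by ChIP-seq (sequencing of DNA that an antibody against H3K9ac pulled down with chromatin) in the xylem layer of the stem where wood is being formed, from black cottonwood (Populus trichocarpa) grown for 3 months in a greenhouse. The day 7 group consisted of plants under severe drought, with a soil water content of 29% and a xylem water content of 74.3% per the labels. The day 0 group consisted of fully irrigated plants, with 74% and 80.6%. Each group had 2 immunoprecipitated and 2 input libraries. Plants sampled after 5 days without water, at 33% and 75.3%, entered only through the list of regions that differed at day 5. No mutant or transgene is named in the labels, and whether replicates came from separate plants is not stated, so that spread between libraries may be technical. Day 0 was the only watered group, and drought cannot be told apart from other differences between sampling days.

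H3K9ac is laid down by histone acetyltransferases and removed by histone deacetylases. The mark reduces the positive charge of the histone tail and is read by bromodomain proteins. In plants it is concentrated around the start and the first part of transcribed genes, and its level tends to follow transcription. In differentiating xylem, cells expand, deposit secondary walls and, in vessels, die to form water-conducting tubes, so that water supply bears directly on the tissue. In poplar, the abscisic acid-responsive factor AREB1 has been linked to recruitment of an acetyltransferase complex at drought-response genes.

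The regions were chosen by measured values, so the values behind the choice are described here and are no evidence of a change. Of the 12101 listed regions, 5335 shared no base with a day 5 region, and in 2974 of these both day 7 libraries lay above both day 0 libraries. A ratio of mean reads of at least 1.2 left 2046, a length under 3000 bp left 2033, and an enrichment over input of at least 0.5 left 2013. Regions just inside the ratio limit lay on chromosome 11 from 1929001 to 1930300, with 296 normalised reads at day 7 and 247 at day 0, and on chromosome 18 from 10437701 to 10438900, with 556 at day 7 and 463 at day 0. The next, on chromosome 18 from 11547601 to 11548600, held 273 at day 7 and 227 at day 0. Just outside it stood chromosome 9 from 12526601 to 12527600, with 241 normalised reads at day 7 and 201 at day 0, and chromosome 19 from 1772201 to 1773200, with 408 at day 7 and 340 at day 0. A further one, on chromosome 12 from 1821301 to 1822300, held 268 at day 7 and 223 at day 0. The limit therefore divides regions of nearly equal change. A region missing from the day 5 list has no day 5 value in the files, so it is not known to have been unchanged at day 5.

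In reads within the chosen regions, the day 7 libraries were further apart than the day 0 libraries. The reads that fell within the 2013 regions, recovered from the normalised values, numbered 545061 and 699962 in the day 7 libraries and 557519 and 571977 in the day 0 libraries. The median region held 229 and 296 reads in the day 7 libraries, and 241 and 246 in the day 0 libraries, with a lowest value of 91. These totals cover the regions alone and are not library depths. Genes were not assigned, because the files name their build only through a chromosome length file and the available gene annotation is of P.trichocarpa_v4.1. Of the regions, 54 on 12 chromosomes started beyond the final gene that this annotation has there. The tissue label was for the same reason not checked against marker genes. Coordinates are 1-based and in the build of the deposited files.

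Most day 7-only gains were small. In bulk tissue, more of the mark per cell and more cells that carry it cannot be told apart. In day 7 replicate 1 the regions held from 217 to 10246 normalised reads with a median of 288, and in day 7 replicate 2 from 215 to 10371 with a median of 297. In day 0 replicate 1 they held from 82.9 to 5977 with a median of 217, and in day 0 replicate 2 from 80.4 to 7116, again with a median of 217. The median region thus had 1.36 times the day 0 reads at day 7, a log2 change of 0.44, beside a median of -0.06 over all 12101 listed regions. In 1630 regions (81.0%) the ratio stayed under 1.5, in 383 it was 1.5 or more, and in 14 the log2 change was at least 1. By the rule, both day 7 libraries exceeded both day 0 libraries in 2013 of 2013 regions, beside 47.4% of all listed regions. The lower day 7 library exceeded the higher day 0 library by a median of 1.26 times, and by less than 1.2 times in 583 regions. The libraries of a group were a median log2 difference of 0.09 apart, at day 7 and at day 0 alike.

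In the authors' deposited table, 1900 of the 2013 regions passed an adjusted p of 0.05, beside 44.1% of all listed regions that passed it in the gained direction. The 113 that did not pass were 1100 to 1900 bp long, with ratios from the limit of 1.2 up to 1.30. Regions of a single 1000 bp window were listed because that window passed, so none of them was among the 113. The limma fit over all 12101 listed regions gave an adjusted p under 0.05 in the gained direction for 2013 of the 2013, beside 41.4% of all listed regions. The rule had already chosen regions whose libraries did not overlap, so nothing is read from these counts. Under other scalings fewer regions passed. With unscaled reads, 444 of the 2013 kept both day 7 libraries above both day 0 libraries and limma called 51. With libraries scaled by the right-trimmed mean of reads per bin in the file header, 1905 kept that order and limma called 1233. These scalings moved the median of all listed regions by -0.32 and -0.18 on the log2 scale. Relative to that median, the median log2 change of the 2013 regions was 0.50 under all 3 scalings, as a shift common to all regions of a library gives.

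The 10 regions with the largest ratios, among those past the deposited adjusted p, held 2.07 to 2.69 times the day 0 reads at day 7. On chromosome 11, the region from 2826801 to 2828400 held 339 and 326 normalised reads in the day 7 libraries, and 105 and 145 in the day 0 libraries. The groups stood well apart, although the day 0 libraries differed more from each other than the day 7 libraries did. Its log2 change in the limma fit was 1.43 (SE 0.13). A further region, 38.0 kb away on chromosome 11 from 2787701 to 2788800, held 252 and 297 normalised reads at day 7, and 128 and 104 at day 0, with a log2 change of 1.24 (SE 0.12). Neither had a day 5 region within 50 kb. Another chromosome 11 region, from 13777301 to 13778300, held 247 and 221 normalised reads at day 7, and 96.4 and 127 at day 0. Chromosome 11 thus supplied 3 of the 10.

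On chromosome 14, the region from 9867401 to 9869300 held 495 and 434 normalised reads at day 7, and 183 and 177 at day 0, which gave a log2 change of 1.37 (SE 0.08). The day 0 libraries were nearly equal there. On chromosome 6, the region from 1586701 to 1587800 held 249 and 248 normalised reads at day 7, and 113 and 80.4 at day 0. Here the day 7 libraries were the closer pair. On chromosome 10, the region from 13290501 to 13291500 held 237 and 226 normalised reads at day 7, and 82.9 and 106 at day 0, the lowest day 0 mean of all 2013 regions at 94.5 ± 16.4 (SD, n = 2).

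The largest ratio of all, on chromosome 17 from 3917401 to 3918600, rested on unequal libraries. It held 261 and 429 normalised reads at day 7, and 126 and 130 at day 0, or 345 ± 119 against 128 ± 2.72 (SD, n = 2 each). The groups did not overlap, but the day 7 libraries were 1.64-fold apart, the widest difference between day 7 libraries among the 1900 called regions. Its input was also 2.36 higher at day 7 on the log2 scale, compared with the median listed region. Set against the input, the reads there had a log2 change of -0.93. The part of the input in that ratio was not tested. A second region of chromosome 17, from 12515101 to 12516900, held 409 and 377 normalised reads at day 7, and 173 and 200 at day 0. It lay 0.2 kb from a region gained at day 5.

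The remaining regions of the 10 lay on chromosomes 19 and 2. On chromosome 19, the region from 355001 to 356000 held 251 and 218 normalised reads at day 7, and 125 and 93.7 at day 0. On chromosome 2, the region from 22977901 to 22979700 held 587 and 544 normalised reads at day 7, and 302 and 245 at day 0, the highest values of the 10. In all 10 regions both day 0 libraries lay under the level at which windows were listed, described below.

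**Figure D1:**
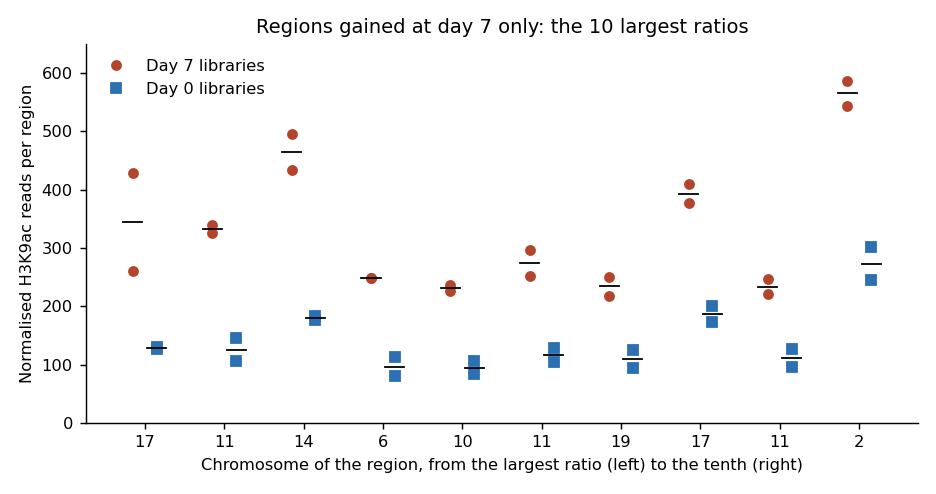
Normalised H3K9ac reads per region (vertical axis) in the 10 day 7-only regions with the largest ratios, ordered by ratio along the horizontal axis and labelled by chromosome. Circles are the 2 day 7 libraries, squares the 2 day 0 libraries and short lines their means. The groups are apart in every region, and the day 7 circles are farthest apart in the chromosome 17 region at the left, at 261 and 429.

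Strongly enriched regions were higher at day 7 by modest amounts. The region with the highest enrichment over input lay on chromosome 10 from 13390301 to 13391400, with a geometric mean of 5.54 over both days. It held 439 and 461 normalised reads at day 7, and 266 and 339 at day 0, so the day 7 libraries were close and the day 0 libraries less so. On chromosome 7, the region from 14983801 to 14984900 had an enrichment of 4.57, with 344 and 361 normalised reads at day 7 and 245 and 265 at day 0. Chromosome 15 from 11727301 to 11728300 held 230 and 248 normalised reads at day 7, and 159 and 174 at day 0, at an enrichment of 4.46. On chromosome 2, the region from 24937101 to 24938300 held 496 and 469 normalised reads at day 7, and 378 and 382 at day 0. The region on chromosome 1 from 11468901 to 11471100 held 1826 and 1906 normalised reads at day 7, and 1570 and 1512 at day 0, a ratio of 1.21. In these 5 regions the day 7 values were higher by 1.21 to 1.49 times. Relative to the input, centred on the median listed region, their log2 changes ran from -0.10 to 0.37, and the regions on chromosomes 7 and 2 lay below 0, at -0.03 and -0.10. With the input not centred, all 5 lay above 0.

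A few regions held far more reads than the rest. The one with the most, chosen after its values were seen, lay on chromosome 5 from 10781001 to 10783000 and held 10246 and 10371 normalised reads at day 7, and 5977 and 7116 at day 0. Its ratio of 1.57 stood close to that of a region 53.4 kb away, from 10726201 to 10727600, which held 1335 and 1473 normalised reads at day 7, and 847 and 999 at day 0. The input was 3374 at day 7 and 5053 at day 0 in the first of them, and 461 at day 7 and 656 at day 0 in the other. Their enrichments were 1.99 and 2.07, a little above the upper quartile of 1.93 over the 2013 regions.

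Across the 2013 regions the median enrichment was 1.60, with 23 regions at 0.5 to 1, 730 at 1 to 1.5, 814 at 1.5 to 2, 387 at 2 to 3 and 59 at 3 or more. Median ratios differed little across these classes, at 1.40, 1.36, 1.36, 1.35 and 1.35. With each day set over its own input, the median enrichment was 2.01 at day 7 and 1.29 at day 0. Over all listed regions it was 1.92 at day 7 and 1.65 at day 0, and the 2013 were chosen for higher reads at day 7. These values carry the scaling of the input, which is not given per library.

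By the rule, the regions were under 3000 bp long. A single window of 1000 bp made up 733 of them (36.4%). The share was 34.0% of all listed regions. In sets described below it was 38.8% (lost at day 7 only) and 15.6% (gained on both days). The 3 single-window regions with the largest ratios were those on chromosomes 10, 19 and 11 described above. Of the longer day 7-only regions, 891 were 1100 to 1500 bp, 303 were 1600 to 2000 bp and 86 were 2100 to 2900 bp. The ratio was higher in the longer classes, with medians of 1.31, 1.37, 1.39 and 1.47 from the shortest to the longest. Length depends on how many neighbouring windows passed, and so on the same reads. The longest regions measured 2900 bp, the most the rule allowed. On chromosome 5 from 4090101 to 4093000 such a region held 898 and 942 normalised reads at day 7, and 493 and 570 at day 0. On chromosome 4 from 5124901 to 5127800 a further one held 708 and 827 at day 7, and 499 and 519 at day 0. On chromosome 9 from 3239601 to 3242500 the last of the 3 held 850 and 870 at day 7, and 691 and 699 at day 0.

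Windows were listed only above a minimum of reads. Per 1000 bp, many day 7-only regions lay near or under that minimum, as did many other listed regions. Per the file headers, a deviation threshold of 2 was used. The bin mean plus 2 deviations, divided by the normalisation constant, came to 217 and 213 normalised reads in the day 7 libraries and to 202 and 204 in those of day 0. The lowest values in 1000 bp regions of the matching direction were close to this level, at 213 and 212 at day 7 and 202 and 204 at day 0. In 1240 of the 2013 regions (61.6%), both day 0 libraries lay under that level per 1000 bp. Regions gained on both days were taken under the same limits and overlapped a gained and no lost region of day 5. Among them the share was 844 of 1693 (49.9%), and over all listed regions it was 2493 of 12101 (20.6%). A low day 0 value is part of being gained, and among regions lost at day 7 only the share was 2.26%. At day 7, 1225 of the day 7-only regions (60.9%) had a mean density under 1.2 times the level. That count includes regions under the level itself. It took in 560 of the regions gained on both days (33.1%), 81.8% of those lost at day 7 only and 55.6% of all listed regions. The 1240 regions with day 0 under the level had a median ratio of 1.43, and 358 of them reached a ratio of 1.5. The other 773 had a median ratio of 1.28, and 25 of them reached 1.5. In the day 5 comparison the same level was 224 and 223 normalised reads for day 5 and 219 and 221 for day 0. How many of the regions were left off the day 5 list by that level was not tested, since the files hold no day 5 reads for them.

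**Figure D2:**
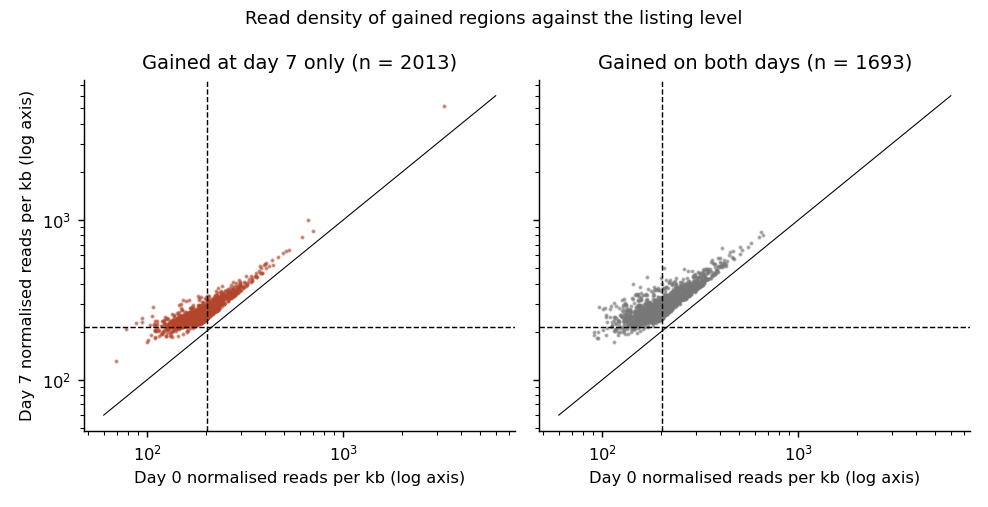
Mean normalised reads per kb at day 7 (vertical, log axis) against day 0 (horizontal, log axis) for the 2013 regions gained at day 7 only (left) and the 1693 gained on both days (right), 1 point per region. Dashed lines mark the mean listing level of each day, and the diagonal marks equal values. Of the regions gained at day 7 only, 61.6% had both day 0 libraries under the level.

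Set beside the 1693 regions gained on both days, the day 7-only regions were shorter, weaker and less enriched. Their median length was 1100 bp against 1600 bp, their median ratio 1.36 against 1.43, and their median enrichment 1.60 against 1.95. Median reads at day 7 were 292 in the day 7-only regions and 461 in those gained on both days. Ratios of 1.5 or more made up 19.0% of the day 7-only regions and 35.0% of the others, and log2 changes of at least 1 numbered 14 and 68. The 1196 regions lost at day 7 only, under mirrored limits, resembled the gained ones in size, with a median length of 1100 bp, a median enrichment of 1.62 and a median ratio of 0.755. The sets were defined by these reads and overlap with day 5, and the differences between them were not tested.

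Input DNA was not part of the choice of direction, and whether it was higher or lower at day 7 depended on the centring. As derived, the log2 change of the input had a median of -0.19 in these regions and -0.26 over all listed regions, and the input was lower at day 7 in 1628 of the 2013 (80.9%). Relative to the median listed region, that change had a median of 0.07, with an interquartile range of -0.06 to 0.22, and lay above 0 in 1278 regions (63.5%). In regions gained on both days the share was 66.2%, and in those lost at day 7 only it was 43.1%. Relative to the centred input, the log2 change of the 2013 regions had a median of 0.38, and it stayed above 0 in 1893 (94.0%) and at or above the 1.2-fold limit in 1409 (70.0%). The shares were 93.6% and 75.3% of the regions gained on both days, and 49.1% and 30.5% of all listed regions, and the day 7-only regions had been chosen for higher reads at day 7. In the other 120 regions the centred input change was at least as large as that of the immunoprecipitate, and with the input not centred this held for 24. Inputs are available only as a single value per day and region, so no test of them was possible. The part of the input in these gains was not tested.

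Apart from the chromosome 17 region, the input was most raised on chromosome 15 from 3825801 to 3827100. That region held 238 and 287 normalised reads at day 7, and 159 and 158 at day 0, while its input was 452 at day 7 and 142 at day 0. The groups of immunoprecipitated libraries did not overlap, but the log2 change was the lowest of the 2013 once set against the input, since the input ratio exceeded that of the reads. On chromosome 5 from 7870301 to 7871300 the reads were 227 and 243 at day 7, and 147 and 171 at day 0, with an input of 94.5 at day 7 and 58.1 at day 0. Of the 10 regions with the largest ratios, 9 kept a log2 change over 0.5 relative to the input, from 0.58 to 1.47.

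**Figure D3:**
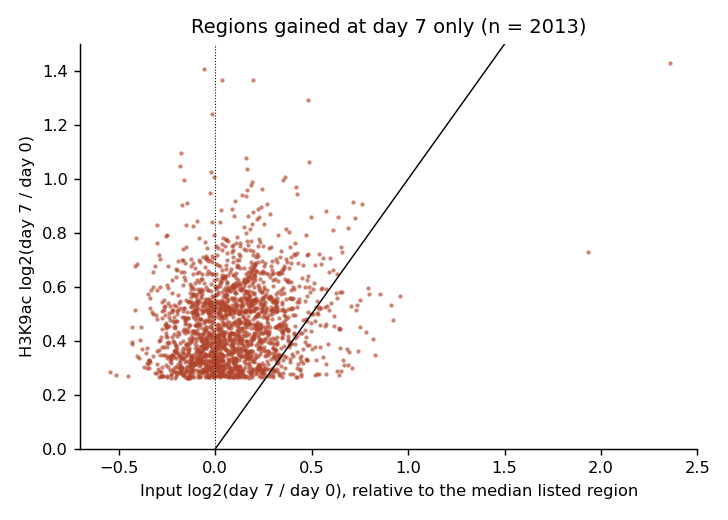
Log2 ratio of day 7 over day 0 in H3K9ac reads (vertical) against that of the input relative to the median listed region (horizontal) for 2013 regions, 1 point each. The solid diagonal marks equal change, with 1893 points above it. The dotted line marks the input change of the median listed region, and the 2 points at the far right are the chromosome 17 and chromosome 15 regions.

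Replicates of day 7 were far apart in few regions. Beside the chromosome 17 region, the widest differences were on chromosome 12 from 1719901 to 1721000, with 263 and 429 normalised reads at day 7, and 248 and 233 at day 0, and on chromosome 19 from 12127401 to 12128400, with 249 and 398 at day 7, and 231 and 242 at day 0. In these 2 regions the lower day 7 library was only slightly above the higher day 0 library. Replicate 2 was the higher of the day 7 libraries in 1188 of the 2013 regions (59.0%), against 51.1% of all listed regions.

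Day 7-only gained regions lay about as near to the regions of day 5 as those lost at day 7 only. The nearest listed day 5 region was a median of 8.50 kb away, 22 regions abutted one, and 1 lay on a scaffold without any. Neighbours were counted as gained where both drought libraries lay above both day 0 libraries, and as lost where both lay below. Within 1 kb there were 225 regions (11.2%), of which 131 had a gained and 83 a lost region as the nearest. Within 5 kb there were 719 (35.7%), with 389 nearest to a gained and 299 nearest to a lost region. Among regions lost at day 7 only, 10.4% lay within 1 kb of a day 5 region and 35.8% within 5 kb. The gained share of the nearest day 5 regions was 58.2% within 1 kb and 54.1% within 5 kb, beside 45.8% of all regions listed at day 5. For regions lost at day 7 only it was 31.5% and 35.5%. Both comparisons share the same day 0 libraries. Of the 126 gained day 5 regions that lay within 1 kb of a day 7-only region, 77 (61.1%) were overlapped by another region gained at day 7, and 41 by none.

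Other day 7-only regions lay far from any day 5 region. On chromosome 14 the region from 15773601 to 15774600 was 384 kb from the nearest day 5 region, and held 258 and 262 normalised reads at day 7 and 190 and 203 at day 0. On chromosome 7 the region from 7465901 to 7466900 was 371 kb away, and held 229 and 215 at day 7 and 141 and 115 at day 0. The next, on chromosome 14 from 15994801 to 15996100, was 306 kb away, and held 312 and 335 at day 7 and 224 and 250 at day 0. In all 3 the groups were apart, as the rule requires, and the day 7 libraries were close. The day 0 libraries of the chromosome 7 region were less close, at 141 and 115. Distance went with no large difference in the change itself. Where the nearest day 5 region was gained, the median log2 change was 0.44 within 1 kb, 0.45 at 1 to 5 kb, 0.44 at 5 to 50 kb and 0.51 in the 64 regions farther off.

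Neighbours at day 7 were more often gained than lost. Within 5 kb, 851 of the 2013 regions (42.3%) had another region listed at day 7. A neighbour was counted once for each region it lay near, so the counts are of pairs. Of 1127 such pairs, 723 had a gained neighbour (64.2%) and 366 a lost one. Over all listed regions 51.8% of the neighbours were gained. For regions gained on both days it was 75.8%, and for those lost at day 7 only 37.7%. In 270 of the pairs the neighbour was itself a day 7-only region, which counts such pairs from both ends. In 218 pairs the neighbour was gained on both days. Regions are not independent replicates, and these shares were not tested.

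**Figure D4:**
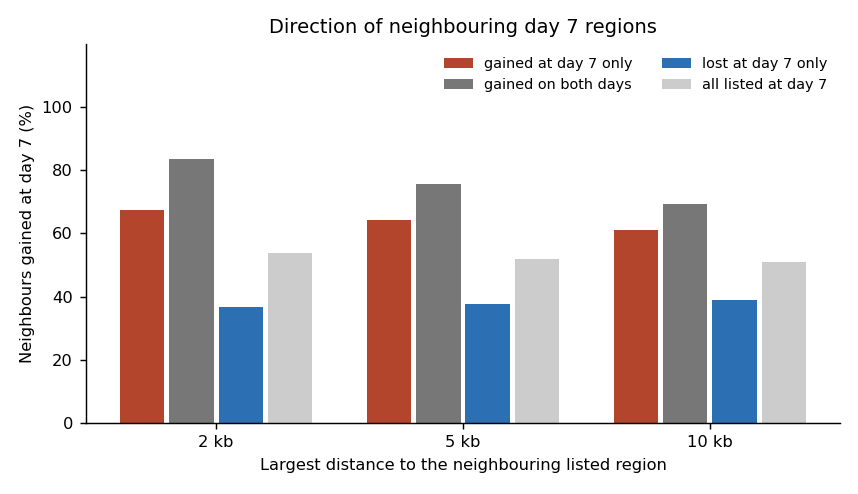
Percentage of neighbouring regions at day 7 that were gained (vertical axis, from 0) within 2, 5 and 10 kb (horizontal axis), for regions gained at day 7 only, gained on both days, lost at day 7 only and all listed at day 7. Bars are shares of pairs of a region and a neighbour, and carry no error bar. For regions gained at day 7 only the share was 67.5%, 64.2% and 61.0%.

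Runs of day 7-only regions were few. With gaps of at most 5 kb, 1766 regions (87.7%) stood without another, 103 runs held 2, 11 runs held 3 and 2 runs held 4. Both runs of 4 lay on chromosome 9. That from 11600501 to 11612900, 12.4 kb long with no other listed region of either day inside, had ratios of 1.26, 1.55, 1.43 and 1.55. Its last region, from 11611001 to 11612900, held 541 and 582 normalised reads at day 7, and 352 and 370 at day 0. The run from 12485401 to 12497800, likewise 12.4 kb long and free of other listed regions, had ratios of 1.30, 1.59, 1.52 and 1.38. Its region from 12494601 to 12495800 had the highest enrichment of these at 3.33. The run of 3 with the largest changes lay on chromosome 8 from 8107601 to 8116800. Its regions held 821 and 903, 618 and 599, and 244 and 298 normalised reads at day 7, and 543 and 516, 394 and 387, and 113 and 158 at day 0. The smallest of them, from 8115701 to 8116800, had a ratio of 2.00.

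Day 7-only regions were found on all 19 chromosomes, with 5 more on unplaced scaffolds. Over the 19 chromosomes there were 5.13 per Mb of the span that listed regions cover, with the highest densities on chromosome 9 (8.25 per Mb), chromosome 10 (7.98) and chromosome 8 (7.53), and the lowest on chromosome 18 (3.39). Listed regions of any kind were also densest on chromosomes 9, 8 and 10, at 49.2, 47.5 and 43.8 per Mb. Day 7-only regions made up 35.1% of all regions gained at day 7, from 29.7% on chromosome 18 and 30.3% on chromosome 12 to 40.5% on chromosome 5 and 42.2% on chromosome 17. Median ratios by chromosome stayed between 1.32 on chromosome 15 and 1.40 on chromosome 1. Chromosome 19, which carries the sex-determining region of poplar, held 57 of the regions at a median ratio of 1.36.

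**Figure D5:**
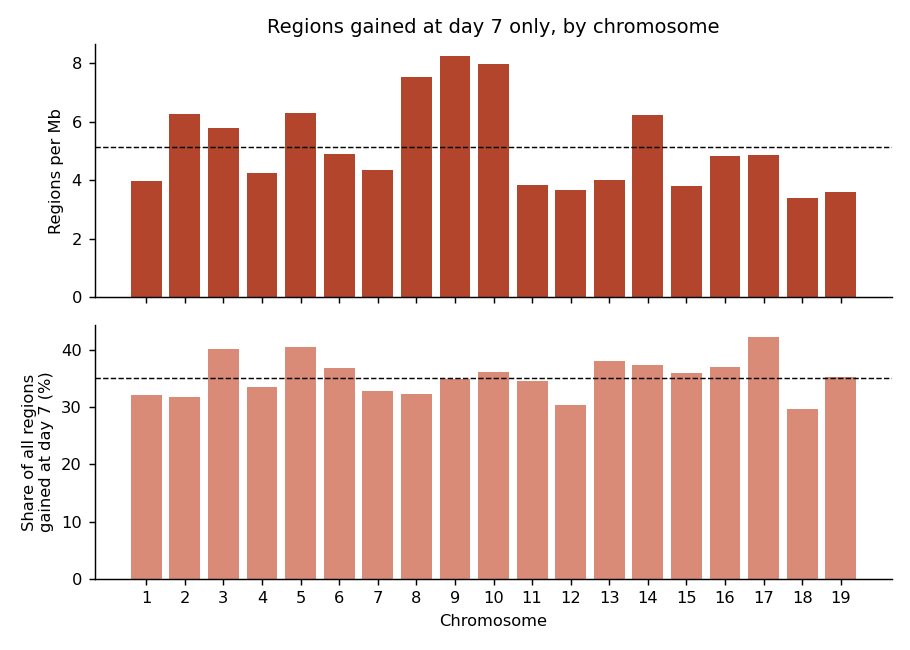
Number of day 7-only gained regions per Mb (top) and their share of all regions gained at day 7 in percent (bottom) for chromosomes 1 to 19, with both vertical axes from 0. Dashed lines mark the values over all 19 chromosomes, 5.13 per Mb and 35.1%. Chromosomes 8, 9 and 10 stand highest in density and chromosome 17 in share.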

How the data were processed

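Per the labels, chromatin from stem differentiating xylem was immunoprecipitated with an anti-H3K9ac antibody and sequenced beside input DNA. Per the submitters' processing notes, Bowtie was used. Per the file headers, diffReps 1.55.4 tested 1000 bp windows moved by 100 bp with a negative binomial test at a window p-value of 0.0001, and the deposited p-values were adjusted over 57991 tests at day 7. The deposited read columns hold normalised reads of both libraries of a group, and the deposited signal is their mean. The deposited ratio columns hold fold enrichment over background, where per the file headers the inputs of the days were exchanged. Enrichment is given as the geometric mean of both columns, and each day's input was derived from them. The deposited log2 column is the fold change of drought over day 0.

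Chromosome names differ between the tables and were joined by number. In 593 regions of identical coordinates, day 0 reads differed only by a constant. Reads times a fitted constant were whole within 0.1 in 100% of regions. limma 3.58.1 (R 4.3.3) was run on log2 normalised reads over all 12101 regions without pseudocount, with trended prior variance and Benjamini-Hochberg adjustment, and was tested on simulated data. Members, sets and alternatives were chosen with earlier results of these data known. Regions were named by largest change (10), highest enrichment (5), length, input rise, replicate difference, distance from day 5 regions, nearness to the ratio limit and longest runs (3 each). Whole reads were recovered for each library, but the count test planned on them was not run. Libraries were amplified by PCR without molecular identifiers, and reads may repeat a molecule. No sequence is shown, since no genome of the files' build was used here.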

Additional observations from a re-analysis of the deposited data

How the results depend on the processing

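Of 30 recomputed values, 18 stayed close to those reported. Close meant within 1.5-fold for a count, and within 0.018 for the median log2 change. The latter is the SD of the 4 medians from single libraries of each day. For the gained share of day 7 neighbours it meant inside an exact binomial interval, 61.3% to 67.0%. That interval treats the pairs as independent, which they are not. The median log2 change stayed above 0 under each alternative run. With a library left out or a pseudocount added, the rule fixes that sign, so nothing is read from it there. With unscaled reads the mean was higher at day 7 in 1602 of the 2013 regions and lower in 389. The count test on recovered reads was not run. The number of regions stayed between 1806 and 2173 under other definitions of overlap with day 5 and of the adjusted p, and at 1990 with an enrichment of at least 1. It was 383 with a ratio of at least 1.5 and 446 with an enrichment of at least 2, since these limits lie inside the range of the set. Scaling mattered most. limma called 51 of the 2013 with unscaled reads and 1233 when scaled by right-trimmed means per bin, a setting added after the data were seen. Over all listed regions it called 5005 gained and 5086 lost with the deposited constants, 285 and 5228 with unscaled reads, and 2854 and 6199 with right-trimmed means. The median log2 change was 0.12 with unscaled reads, 0.26 with right-trimmed means, 0.38 relative to the input and 0.42 with a pseudocount of 10. Leaving out a library gave medians from 0.41 to 0.45. A minimum mean of 100 reads removed no region. With the replicate number as a block, limma called 2013 of the 2013, beside 5007 gained of all 12101 listed regions. The rule had chosen regions whose libraries did not overlap, so nothing is read from this count. The labels do not say that numbers pair the libraries, and the deviations of same-numbered libraries correlated at 0.09. The number of regions whose nearest day 5 region was gained was 131 within 1 kb and 611 within 10 kb, and the gained share of day 7 neighbours was 67.5% within 2 kb and 61.0% within 10 kb, as the distance sets. Relative to an uncentred input, 1989 regions were gained. Changes in regions near the listing level are limited by the read minimum of the deposited lists.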
